A study of Mus musculus with 2 samples.

Results

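The mouse genes Col1a1, Col1a2, Col3a1, Col5a1 and Col5a2 encode chains of fibrillar collagens, and their surroundings were described in a map of histone H4 made from MC3T3 sc4 cells, an osteoblast line from mouse calvaria. The regions were chosen by position alone: every listed region that overlapped 1 of 4 windows of build mm9 by at least 1 bp. The windows themselves were chosen with earlier results of these data known. The windows were chromosome 11, 94760000 to 94840000, for Col1a1; chromosome 6, 4420000 to 4520000, for Col1a2; chromosome 1, 45330000 to 45600000, for the neighbours Col3a1 and Col5a2; and chromosome 2, 27700000 to 27930000, for Col5a1. They held 39 of the 61400 listed regions: 2, 5, 24 and 8 in this order. No gene annotation of build mm9 was used, so the windows were taken as given, and no region is placed relative to a gene start, exon or intron.

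The study had 1 chromatin immunoprecipitation library of cells treated with the histone deacetylase inhibitor SAHA, also called vorinostat, at 20 µM, and 1 library from cells given the solvent DMSO. Both cultures had grown to day 4 in osteogenic medium with ascorbic acid and beta glycerol phosphate, were exposed for 2 hours, and stayed exposed through 40 min in collagenase. The labels name the antibody's target as histone H4, while the series' design speaks of acetylated H4. A list of regions carries no expression values, so the cell type was not checked against its markers. The authors' caller, MACS, listed stretches where SAHA tags exceeded the local DMSO background, here called SAHA-high regions. There was no replicate of either condition, so no test was made, and every interval below covers counting error at most.

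Fibrillar collagen chains wind together in the endoplasmic reticulum, are secreted as procollagens, and assemble into the fibrils that bone mineral is laid down on. Col1a1 and Col1a2 encode the chains of type I collagen, the main protein of bone matrix. Col3a1 encodes the chain of type III collagen, which accompanies type I in soft connective tissue and in early bone repair. Col5a1 and Col5a2 encode chains of type V collagen, a minor component that helps to set fibril diameter. Ascorbic acid, present in the medium of both cultures, is a cofactor of the prolyl hydroxylases that stabilise collagen chains. Histone deacetylases remove acetyl groups from histone tails, and acetylated H4 is a mark of open chromatin.

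Promoter sequences are shown to let a reader compare the member genes at their starts. RefSeq (GRCm38.p6) gave them for 3 of the 5 genes, Col1a2, Col3a1 and Col5a1. Each runs 5′ to 3′ on the plus strand from 250 bases before the gene start to 50 after it. Capitals mark the CCAAT box, searched as CCAAT and ATTGG to cover both strands. These positions belong to another build than the mm9 windows and cannot be compared with them, so no listed region was set against these sequences.
Col1a2, chr6:4505368-4505667: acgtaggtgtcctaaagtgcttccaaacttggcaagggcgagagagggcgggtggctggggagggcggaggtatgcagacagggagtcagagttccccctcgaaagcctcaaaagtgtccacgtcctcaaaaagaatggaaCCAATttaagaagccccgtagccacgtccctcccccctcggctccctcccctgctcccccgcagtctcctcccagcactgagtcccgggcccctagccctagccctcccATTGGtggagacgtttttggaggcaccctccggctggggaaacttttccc
Col3a1, chr1:45311288-45311587: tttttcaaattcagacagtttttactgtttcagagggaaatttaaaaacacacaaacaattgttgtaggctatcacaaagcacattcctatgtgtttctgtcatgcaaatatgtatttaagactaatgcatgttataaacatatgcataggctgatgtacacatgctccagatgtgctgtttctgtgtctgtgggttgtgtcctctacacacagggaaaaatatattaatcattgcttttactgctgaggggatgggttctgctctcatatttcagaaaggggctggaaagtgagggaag
Col5a1, chr2:27886175-27886474: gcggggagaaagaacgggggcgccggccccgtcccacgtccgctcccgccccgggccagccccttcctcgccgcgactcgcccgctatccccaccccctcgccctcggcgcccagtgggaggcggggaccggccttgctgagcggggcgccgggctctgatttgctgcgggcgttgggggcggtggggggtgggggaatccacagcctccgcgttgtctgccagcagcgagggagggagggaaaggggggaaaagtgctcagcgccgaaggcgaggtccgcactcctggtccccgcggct

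The promoters differed widely in base composition. The Col5a1 promoter was 75% G and C with 34 CpG sites, more sites than 92.3% of the 32851 mouse promoters of that length. The Col1a2 promoter was 61% G and C with 13 CpG sites, and the Col3a1 promoter 37.7% with 0. The median promoter had 52.7% and 7 sites. The CCAAT box, the motif bound by NF-Y, had 2 copies in Col1a2 and 0 in Col3a1 and Col5a1, and occurred in 37.4% of all promoters. The GC box, searched as GGGCGG and CCGCCC, had 2 copies in Col1a2, 2 in Col5a1 and 0 in Col3a1, and occurred in 35.7% of all promoters. The TATA sequence, searched as TATAAA and TTTATA, had 1 copy in Col3a1 and 0 in the others, and occurred in 13.6%. A match to a motif is a description of the letters and no evidence that a factor binds.

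The 4 windows differed in how many SAHA-high regions they held and how dense these were. The Col3a1 and Col5a2 window was richest in regions, with 24 in 270 kb, or 8.89 per 100 kb, and they covered 11.5% of it. The Col1a2 window held 5.0 per 100 kb (7.14% covered), the Col5a1 window 3.48 (12.4%) and the Col1a1 window 2.5 (6.77%). The lead rested on regions of lower score, the caller's value that rises as the p-value falls. At a score of at least 100, the Col3a1 and Col5a2 window held 8 regions in its 270 kb (4.75% covered). The Col1a2 window then held 3 in its 100 kb (5.93%), so the lead per 100 kb was not kept. Density followed another order. Pooled over its regions it was highest for Col5a1, at 267 SAHA tags per kb of region (95% Poisson interval 261 to 273), but this rests on 2 of the 8 regions, and the other 6 held 196 (190 to 203). The Col1a2 regions held 232 tags per kb (221 to 243). Of these, 1 region held 277 and the other 4 together 178. The Col1a1 regions held 218 (206 to 231) and the Col3a1 and Col5a2 regions 187 (182 to 192). The intervals of Col1a2 and Col1a1 overlapped, and those of the other windows, with all regions, did not. They leave out the spread between regions, 119 to 479 tags per kb in Col5a1, so they do not separate the windows. By the median region the order was Col1a1 with 221 tags per kb, Col5a1 with 197, Col1a2 with 168 and Col3a1 and Col5a2 with 164. For scale, the genome average was 66.1 tags per kb and all listed regions together held 213.0.

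**Figure D1:**
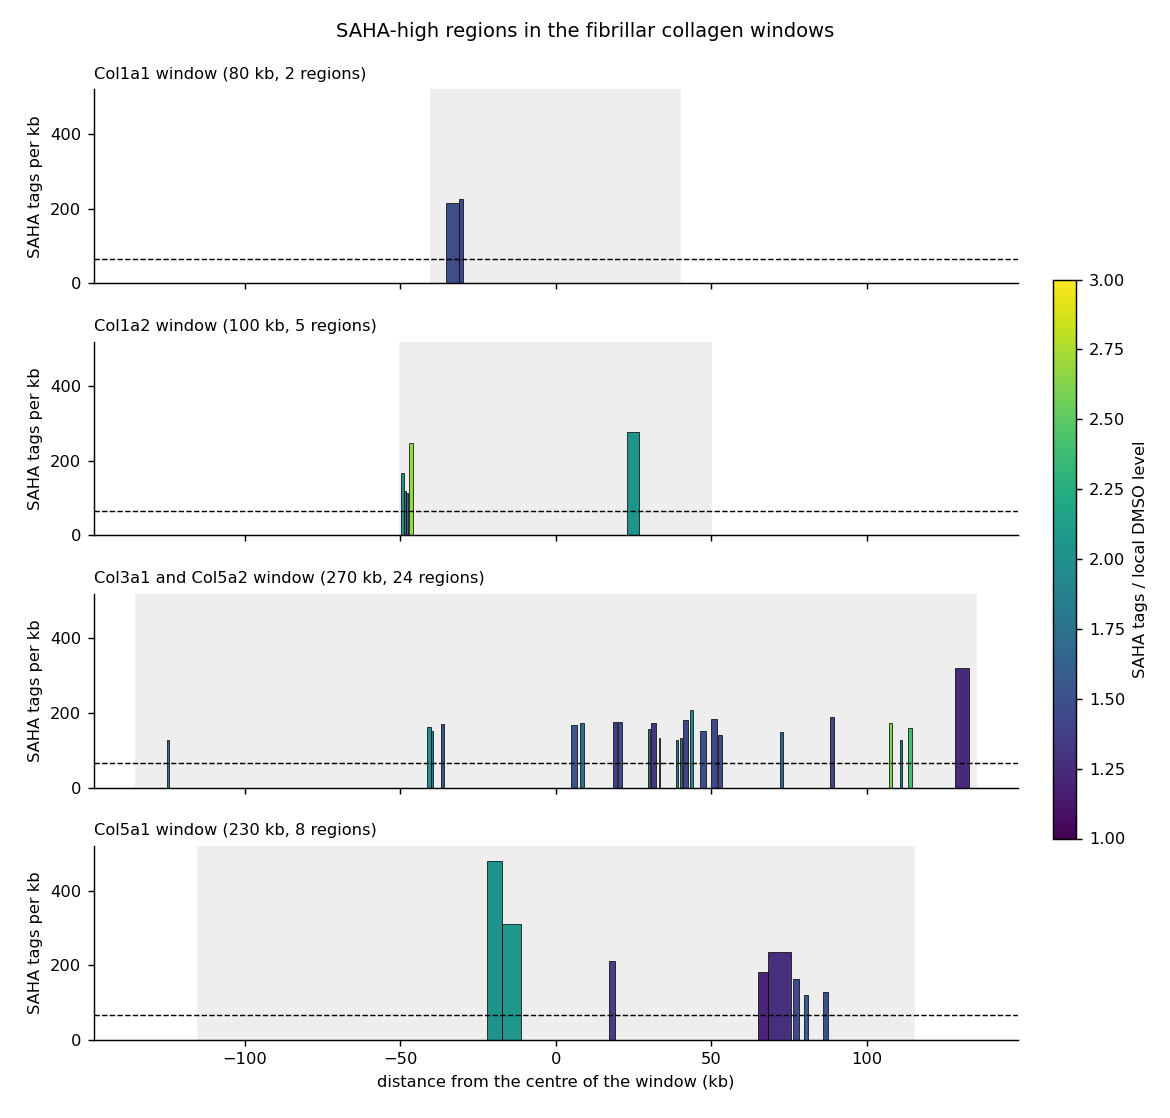
SAHA-high regions in the Col1a1, Col1a2, Col3a1 and Col5a2, and Col5a1 windows (grey), drawn to scale by distance from the centre of each window in kb. Bar height is the SAHA tag density in tags per kb, colour is SAHA tags over the recovered DMSO level, and the dashed line is the genome average of 66.1 tags per kb. A reader should see the many low bars of Col3a1 and Col5a2, the tall pair of Col5a1, and the Col1a1 window empty beyond its first 2 regions.

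The local DMSO level behind each region was recovered from the authors' score, which is a Poisson p-value of the SAHA tags given that level. The level is expressed at SAHA depth, with 1 DMSO tag weighing 1.62 SAHA tags. In 31 of the 39 regions it equalled a background the caller could have used. In those the ratio of SAHA tags to the level is a lower limit, because the caller is known to take the highest of several backgrounds, and in 6 of them it is exact, because the level was the region's own DMSO count. In the other 8 regions level and ratio are approximate, and a ratio given for 1 such region is marked below by the word about. Levels, ranges, medians and counts that include such regions carry no mark. Outside the 6 exact regions, the interval of a ratio covers the SAHA count alone and leaves out any counting error in the DMSO level. Every region was listed because its SAHA tags exceeded the level, so ratios above 1 follow from the listing. No interval allows for this, exact or not, nor for naming a region as the highest of its window.

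The Col1a1 window held 1 pair of regions and no other. The first spanned 94764841 to 94768882 with 869 SAHA tags and a summit fold of 5.2, the authors' ratio of the highest SAHA point to the background. The second followed after a gap of 12 bp, at 94768895 to 94770270, with 311 tags and a fold of 3.26. They were of almost the same density, 215 and 226 tags per kb. The SAHA tags were about 1.48 times the DMSO level in the first (95% Poisson interval 1.38 to 1.58) and at least 1.42 times in the second (1.27 to 1.59), over levels of 2.20 and 2.40 times the genome average. The remaining 69.7 kb, from 94770271 to the window's end, held no listed region. That says only that no stretch there passed the authors' cutoff with more tags in SAHA; stretches with more DMSO tags were not analysed here.

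The Col1a2 window held 4 short regions at its start and 1 longer region 68.9 kb further on. The 4 short regions lay within 3.87 kb, from 4420238 to 4424110, with 146, 63, 78 and 296 SAHA tags in order of position. The first had a ratio of at least 2.03, and the next 2, whose level was the genome average, had ratios of at least 1.79 and 1.74. The region at 4422915 to 4424110 had the highest recovered ratio in the window. Its DMSO count was recovered exactly, and there were 296 SAHA and 68 DMSO tags, which at equal depth is a ratio of 2.68 with an exact 95% binomial interval of 2.05 to 3.55. Its summit fold of 4.92 was the highest in the window. The longer region, 3862 bp at 4493011 to 4496872, held 1069 SAHA tags, or 64.7% of the tags in the window's regions, at 277 tags per kb. Its fold was 4.33 and its ratio at least 2.04 (1.92 to 2.16), over a level of 2.06 times the genome average, which corresponds to 838 DMSO tags in 10 kb.

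The window of Col3a1 and Col5a2 held many short regions of moderate density, in several groups. A region of 727 bp lay alone at 45340152 to 45340878, with 92 SAHA and 32 DMSO tags, a depth-scaled ratio of 1.77 (1.17 to 2.74, exact binomial). After an empty stretch of 82.8 kb came 3 regions within 5.53 kb, with 203, 105 and 162 tags and ratios of at least 1.99, 1.82 and 1.50. The largest group then held 14 regions over 48.3 kb, from 45469994 to 45518317, no neighbours more than 10 kb apart. They covered 35.7% of that span with 2872 SAHA tags, at 167 tags per kb. Their median ratio was 1.50 and the range 1.32 to 1.95, over a median level of 1.58 times the genome average.

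Within the group of 14, tag counts ran from 78 to 321. The lowest was at 45498022 to 45498610, with 25 DMSO tags, a ratio of 1.92 (1.21 to 3.15). The highest was at 45515045 to 45516777, about 1.43 times the DMSO level. Another, at 45503488 to 45504181, held 89 SAHA and 30 DMSO tags, a ratio of 1.83 (1.20 to 2.87). The region with the highest recovered ratio in the group, 45508261 to 45509171, held 190 tags, at least 1.95 times the level. The ratios of 1.92 and 1.83, which rest on exact DMSO counts, had widely overlapping intervals and were not distinguishable at this depth. That does not extend to the other regions of the group.

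Further along the same window the pattern changed. At 45536933 to 45538176 there were 184 SAHA and 67 DMSO tags, a ratio of 1.69 (1.27 to 2.27), and at 45552991 to 45554497 there were 284 SAHA tags, at least 1.42 times the level. A group of 3 regions within 7.27 kb followed, where the DMSO level was at most 1.07 times the genome average. The first of these, 45572135 to 45573032, had the highest summit fold of the 39 regions, 6.22. Its 156 SAHA tags were at least 2.63 times a level equal to the genome average (2.23 to 3.07). The second held 99 SAHA and 34 DMSO tags, a ratio of 1.79 (1.20 to 2.73). The third, 45578203 to 45579402, held 191 tags with a fold of 5.89 and a ratio of at least 2.40 (2.08 to 2.77). The last region of the window differed from these. At 45593150 to 45597700 it was the longest of the 24, at 4551 bp, and the densest, with 1454 SAHA tags or 319 per kb. Its DMSO level was the highest of all 39, 3.90 times the genome average, and its ratio was at least 1.24 (1.18 to 1.30). This region alone held 25.1% of the SAHA tags in the window's regions.

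The Col5a1 window held the longest and the densest of the 39 regions, in a leading pair and a trailing group. The pair, separated by 32 bp, spanned 10.9 kb from 27793032 to 27803968. Its first region, 27793032 to 27797688, had the most SAHA tags of the 39, 2230, and the highest density, 479 per kb or 7.24 times the genome average. Its summit fold was 5.53 and its ratio at least 2.02 (1.94 to 2.10), over a level of 3.59 times the average. The second region, 27797721 to 27803968, held 1933 tags at 309 per kb, with a fold of 4.67 and a ratio of about 2.06 (1.97 to 2.15). The pair accounted for 54.6% of the SAHA tags in the window's regions and 38.2% of their length.

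The trailing group of Col5a1 held 5 regions over 22.6 kb, from 27879834 to 27902445, with 590, 1718, 351, 135 and 209 SAHA tags. It contained the longest of the 39 regions, 7319 bp at 27883151 to 27890469, whose fold was 3.44 and whose ratio was at least 1.28 (1.22 to 1.34). The group's first region, 27879834 to 27883075, had the lowest recovered value of all 39, a ratio of at least 1.21 (1.11 to 1.31), and its last, 27900828 to 27902445, the lowest summit fold, 2.52. The recovered ratios of the 5 ran from 1.21 to 1.58. Between the groups lay 1 region, 27831987 to 27834178, with 465 tags and a ratio of at least 1.35. The first 93.0 kb of the window held no listed region.

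**Figure D2:**
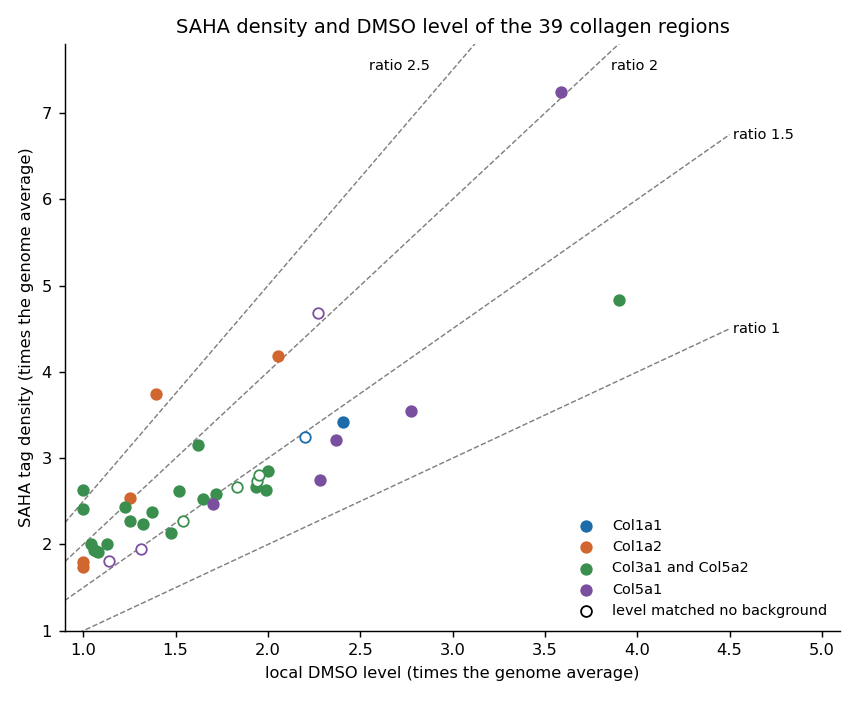
SAHA tag density against the recovered local DMSO level for the 39 regions, both as multiples of the genome average. Each point is 1 region, colours are the windows, open circles are the 8 regions whose level matched no background, and dashed lines join points of equal ratio. The leading pair of Col5a1 and the long region of Col1a2 lie near the line of ratio 2 at levels of 2.06 to 3.59, while the Col1a1 pair and most Col5a1 regions lie at or below the line of 1.5.

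Across the 39 regions, 5 had a summit fold of at least 5, against 19.0% of the 61400 listed regions: 3 of 24 in the Col3a1 and Col5a2 window, 1 of 8 in Col5a1, 1 of 2 in Col1a1 and 0 of 5 in Col1a2. The recovered ratio was at least 2 in 7 of 39, against 28.0% of the 61106 regions with a recovered level. Of these 7, 3 were Col1a2 regions, 2 lay in the Col3a1 and Col5a2 window and 2 were the Col5a1 pair. The DMSO level was at least 2 times the genome average in 10 of 39, against 16.1%, and 5 of the 10 were Col5a1 regions. A score of at least 100 was reached by 16 of 39, against 62.5%. These counts are small, and no test was made of them. The median recovered ratio was 1.69 over the 39 regions and 1.80 over all listed regions, and the median fold 3.7 and 3.93. Most of these ratios are lower limits, as in the whole list. By window, the median recovered ratio was 2.03 for Col1a2, 1.71 for Col3a1 and Col5a2, 1.47 for Col5a1 and 1.45 for Col1a1.

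**Figure D3:**
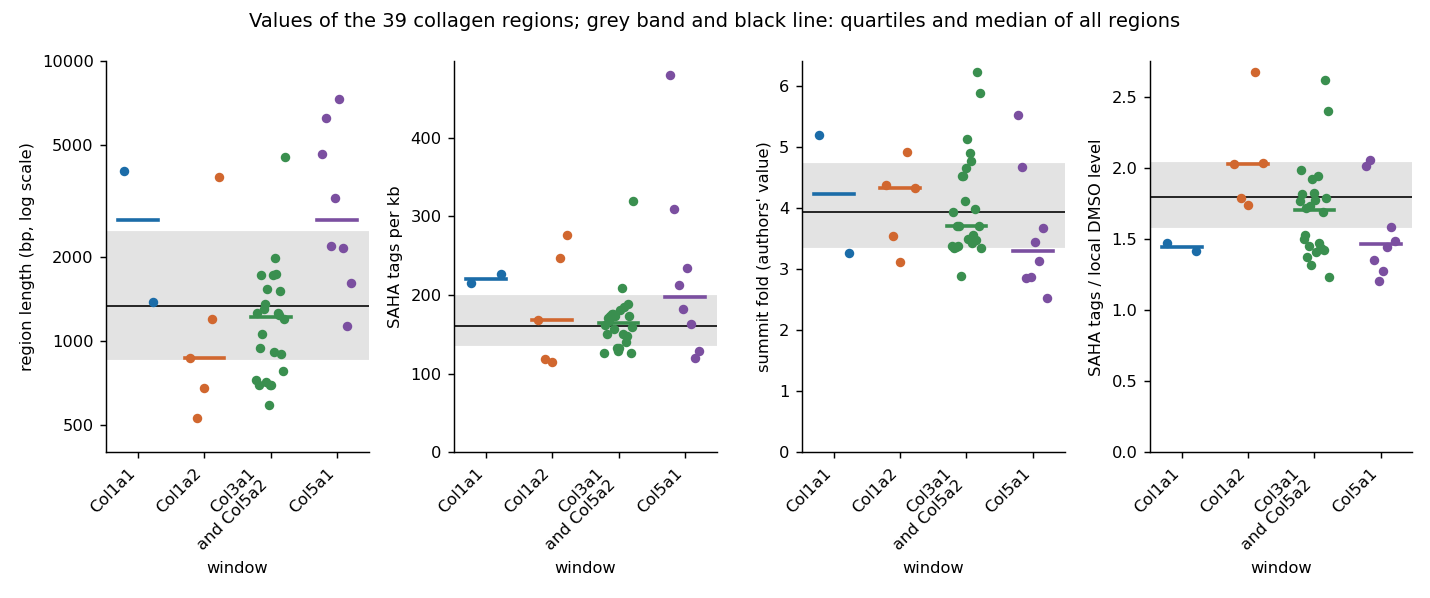
Length in bp on a log axis, SAHA tags per kb, summit fold and SAHA tags over the recovered DMSO level for each of the 39 regions, by window. Points are regions, coloured bars are window medians, and the black line and grey band are the median and quartiles of all listed regions. Col5a1 regions are long (median 2717 bp against 1337 bp in the whole list) with a median recovered ratio of 1.47, and Col1a2 regions are short (median 869 bp) with a median recovered ratio of 2.03.

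Among the 39 regions, as in the whole list, a higher DMSO level went with longer regions and lower recovered ratios. The 8 regions under 1.1 times the genome average were 710.5 bp long in the median, with ratios of 1.74 to 2.63. The 10 regions at 2 times the average or more were 3952 bp long in the median, with ratios of 1.21 to 2.06, with a median of 1.42. In the whole list the median ratios at these levels were 1.98 and 1.41. Part of this trend is built in, because many tags in a long region reach the cutoff with a small excess, and because the level is the divisor of the ratio. Of the 10, the Col5a1 pair and the long Col1a2 region had recovered ratios above 2. The recovered ratios of the other 7 were 1.48 or less, but 6 of these are lower limits, so the regions cannot be ranked by them.

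Each window was set beside all non-overlapping windows of its own size on its chromosome, laid out from the collagen window between the first and the last listed region. The Col3a1 and Col5a2 window held more regions than 91.1% of 709 others on chromosome 1, whose median was 1 and highest 60. The Col1a2 window, with 5, held more than 82.6% of 1458 on chromosome 6, and the Col5a1 window, with 8, more than 68.0% of 774 on chromosome 2. The Col1a1 window, with 2, held more than 55% of 1480 on chromosome 11. Many windows held no region at all: 660 on chromosome 11, 867 on chromosome 6, 339 on chromosome 1 and 315 on chromosome 2. Among windows with at least 1 region the shares were 83.0% of 370 for Col3a1 and Col5a2, 57.2% of 591 for Col1a2, 46.0% of 459 for Col5a1 and 18.8% of 820 for Col1a1. No allowance was made for stretches where few tags can map. The shares count regions of any score and were not recomputed at a score of at least 100. That score was reached by 8 of the 24 Col3a1 and Col5a2 regions, against 62.5% of the whole list.

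**Figure D4:**
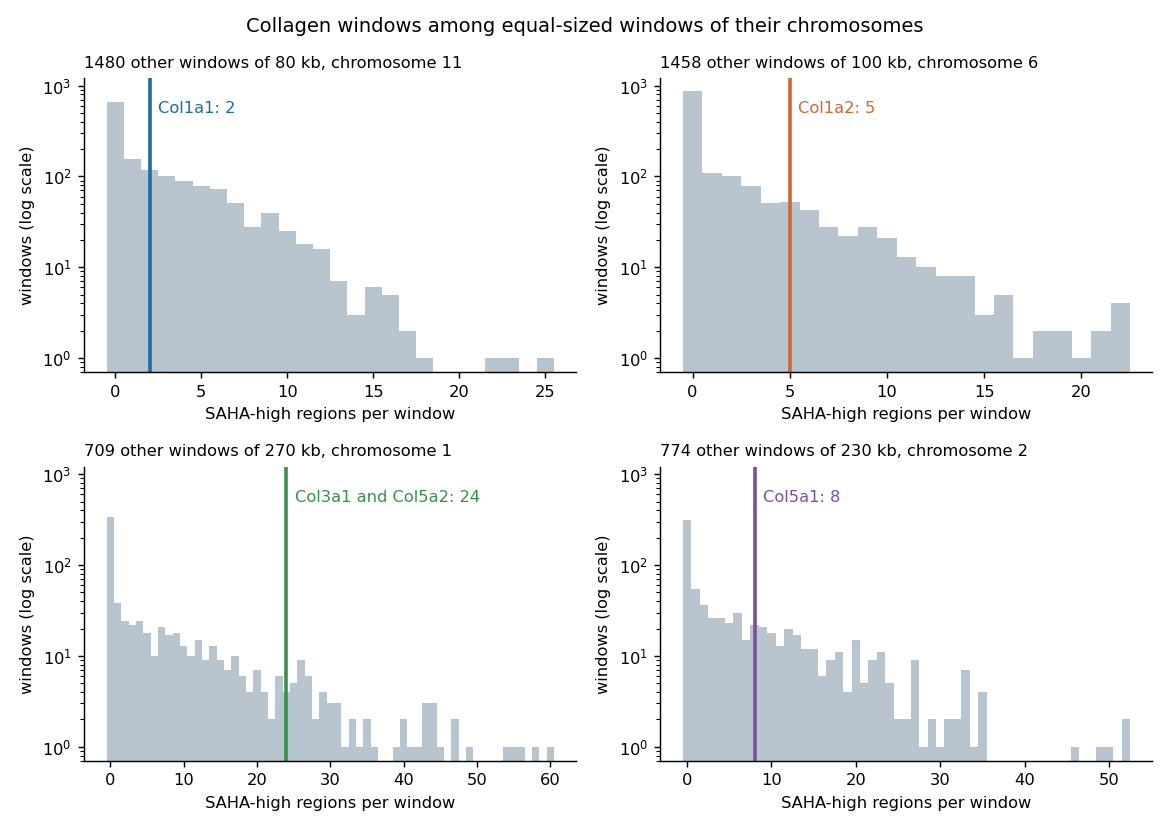
Number of SAHA-high regions in windows of the same size on chromosome 11 (80 kb), 6 (100 kb), 1 (270 kb) and 2 (230 kb), with the count of windows on a log axis. Grey bars are the other windows and the coloured line is the collagen window, at 2, 5, 24 and 8 regions. The Col3a1 and Col5a2 line lies in the upper tail, and the Col1a1 line near the low end of the windows that hold any region.

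In tag density and length the order was different. The Col5a1 regions, pooled, were denser than those of 92.4% of the 459 windows with regions on chromosome 2 (median 199 tags per kb). Without the leading pair, a choice made after seeing the data, they were denser than 47.3%, while the other windows kept all their regions. The median length of all 8 exceeded that of 91.5%. The Col1a1 pair was denser than 70.2% of 820 windows on chromosome 11, with a longer median length than 84.4%. The Col1a2 regions were denser than 67.5% of 591 windows on chromosome 6 (median 202 tags per kb). This rests on the long region, as the 4 short ones alone held 178 tags per kb. The median length of the Col1a2 regions exceeded that of only 11.2% of these windows. The Col3a1 and Col5a2 regions stood near the middle, denser than 51.1% of 370 windows on chromosome 1 and longer than 42.4%. By share covered, the windows exceeded 83.6% of the others for Col3a1 and Col5a2, 79.8% for Col5a1, 77.5% for Col1a2 and 67.0% for Col1a1. For scale, listed regions covered 4.96% of the whole span of chromosome 1, 6.22% of chromosome 2, 5.03% of chromosome 6 and 7.03% of chromosome 11, so the Col1a1 window alone lay below its chromosome.

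The window edges cut through a group of neighbouring regions in 2 places. Before the Col1a2 window, 2.86 kb outside its start, lay a region at 4412998 to 4417144 with 1205 SAHA tags and a fold of 4.21, while the first region inside held 146 tags with a fold of 4.37. After the Col3a1 and Col5a2 window, 2.84 kb outside its end, lay a region at 45602836 to 45603732 with 174 tags and a fold of 3.43, beside the 1454 tags and 3.35 of the last region inside. The nearest regions outside the Col1a1 window were 34.8 kb before and 65.5 kb after it, and those outside the Col5a1 window 54.1 kb before and 130 kb after it.

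The FDR that the authors' caller gave was 100% in 3 of 39 regions, against 11.6% of the list, and these were the Col5a1 pair and the long Col1a2 region. In the other 36 it ran from 58.31% to 91.23%. The 91.23% belonged to the Col1a2 region at 4422915 to 4424110. As this caller is known to compute it, the FDR counts regions called with SAHA and DMSO exchanged. It gives them as a share of the SAHA-high regions of the same or a better score across the genome. At 100%, at least as many were found in the opposite direction. In the other 36 the opposite direction still gave at least 58.31% as many, so none of the 39 had a low FDR. The DMSO library kept 65.6% of its tags after the limit on duplicates and the SAHA library 97.4%, and the part of this difference in the values above was not tested.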

How the data were processed

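Histone H4 was immunoprecipitated from 1 SAHA and 1 DMSO culture of MC3T3 sc4 cells and sequenced. The submitters' processing notes name build mm9 and the tools MACS 1.4.0rc2, SAMtools, BWA 0.5.9 and CASAVA 1.7.0. Per the file headers, the authors called SAHA tags against DMSO tags at a p cutoff of 1e-05 with at most 3 duplicates per position, scaling the smaller library up, and 123676661 SAHA and 76214516 DMSO tags were kept. The deposited columns hold the SAHA tag count per region, a score (10 times the −log10 of the p-value), the summit fold as a ratio, and the FDR as a percent. No DMSO count per region is given in the list, and scaling by kept tags hides a change shared by the whole genome.

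The DMSO level was computed as the Poisson mean at which the Poisson probability of exceeding the tag count equals the p-value in the score, with Python 3.11.15 and scipy 1.17.1. A level was matched when a whole DMSO tag number, counted in the region, in 1 kb or in 10 kb and then scaled, or the genome average fell within the rounding of the score (0.005). Over the list 75.8% of 61106 levels matched. The recovery was also run on data simulated with the same Poisson formula and the same backgrounds. Such a run checks the calculation only and cannot show which backgrounds the caller used. A level that fitted 1 kb also fits 10 kb, so the width of that window is open for those regions. The interval of a ratio uses the SAHA count alone, except where both counts were known (exact binomial).

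In each window the regions with most tags, highest fold, density, length and ratio were named by rule. The others were named to account for each group. The gene windows and all lists were chosen with earlier results of these data known. Gene starts and the other genes of the collagen pathway were not analysed here, since they need an mm9 annotation. Alternatives were a score of at least 100, whole overlap, joined regions, a fold of at least 5, matched levels, a pseudocount of 5, no depth scaling and other tilings.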

Additional observations from a re-analysis of the deposited data

How the results depend on the processing

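With 1 library per condition no alternative stands in for a replicate. No paired analysis was possible because each condition had 1 library. Of the 61 alternative values, 33 did not move beyond the counting interval or by more than 1.5 times, and 28 did. All regions lay wholly inside their windows, so the alternative of whole overlap could change nothing. It gave 16 of the 33 unmoved values, which therefore say nothing about stability. For Col1a1, Col1a2, Col3a1 and Col5a2, and Col5a1 in this order, a score of at least 100 left 1, 3, 8 and 4 regions covering 5.05%, 5.93%, 4.75% and 8.86% of the windows. Their density was then 255 tags per kb for Col1a2, 222 for Col3a1 and Col5a2 and 306 for Col5a1, and the median ratio of Col3a1 and Col5a2 was 1.83. Stricter limits leave fewer regions by construction. A summit fold of at least 5 left 1, 0, 3 and 1 regions. Merging neighbours 1 kb or less apart left 1, 2, 16 and 5 regions. Without its leading pair, an alternative added after seeing the data, the Col5a1 density was 196 tags per kb. Without depth scaling the median ratios were 2.35, 3.29, 2.77 and 2.38, larger by the scaling factor. Among windows with at least 1 region, the shares with fewer regions were 18.8%, 57.2%, 83.0% and 46.0%, since empty windows drop out. Shifting the tiling by a part of a window, a pseudocount and matched levels alone moved no value beyond its interval. The distance to gene starts was not run, as no mm9 annotation was used. Depth limits the shortest regions most: the ratio of 1.92 from 78 SAHA and 25 DMSO tags has an interval of 1.21 to 3.15.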

Other observations

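The SAHA height at the summit, in fragments of 141 bp stacked there, follows from the fold, the level and the length. It came out whole within 0.1 tags in 29 of the 31 regions with a matched level, and the other 2 came out at 73.1001 and 121.874. The part of rounding in the printed fold in these 2 was not tested. In the whole list it came out whole in 99.6% of the 41279 regions tested, fewer than the 46310 with a matched level. The heights ran from 29 at 4421838 to 4422514 in the Col1a2 window to 185 in the first region of the Col5a1 pair, with a median of 55.0. The summit lay in the outer 20% at either end of the region in 7 of 39 regions, against 12.4% of the whole list, and 3 of the 7 were Col5a1 regions. The neighbouring regions inside the windows were separated by 35 gaps, of which 15 were 1 kb or shorter and 5 were 100 bp or shorter, the shortest being the 12 bp inside the Col1a1 pair. No region of the 39 was longer than 10 kb, against 821 of the 61400 listed regions, and 2 were shorter than 600 bp, against 2255. Both lengths are thus rare in the whole list too.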
